A study of Mus musculus with 2 samples.

Results

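The genes described here encode the receptors through which nerve cells sense GABA, glycine, glutamate, acetylcholine, serotonin and dopamine. They were chosen by symbol alone, as all rows of the deposited expression matrix that carry a symbol of these receptor families, and no measured value entered the choice. The rule found 53 of 18088 genes. Of these, 51 encode receptor subunits or receptors, out of 90 protein-coding genes of the same families in the GENCODE M21 annotation. Grina encodes a membrane protein named for its association with NMDA receptors and is no receptor subunit. Chrna1os is a noncoding gene named for its place opposite the muscle nicotinic gene Chrna1.

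The cells came from the medial ganglionic eminence (MGE) of mouse embryos of the CD-1 strain, dissected at E11.5. The MGE is a ventral forebrain swelling whose progenitors give rise to cortical and striatal interneurons and to cholinergic and GABAergic projection neurons of the basal ganglia. Per the labels, the cells were pooled with MULTI-seq, in which lipid-anchored barcodes mark each suspension, and 6 barcodes named the enhancer hs192 or hs799. Of these, 4 marked cells gated for GFP (2 for each enhancer) and 2 marked ungated cells (1 for each), and all shared 1 RNA library. No map from cells to barcodes was used here, so the library counts as 1 sample, shares of cells can be set by the gate, and no value below has a biological replicate.

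Fast inhibition in the mature brain runs through GABA-A and glycine receptors, pentamers with a chloride pore. GABA-A receptors usually join alpha, beta and gamma subunits. Fast excitation runs through AMPA, kainate and NMDA receptors, tetramers with a cation pore, and through nicotinic acetylcholine receptors, which are pentamers. GABA-B, metabotropic glutamate, muscarinic, dopamine and most serotonin receptors act through G proteins. In the embryonic forebrain GABA is present before synapses form and depolarizes immature cells, because their chloride level is high, and GABA and glutamate are known to affect proliferation and migration there.

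The matrix held 4001 cells with 10475 to 14196 summed values per cell (median 12506) and 2471 to 5486 genes per cell (median 3989). The values are whole numbers with near-constant cell totals, as after scaling to a common depth, so they are not treated as raw counts and no count model was fitted. A level below is the summed value of a gene per 10000 summed values of a set of cells. An SD is over cells and shows the spread between cells of 1 library, not between samples. A share is the percentage of cells with a value above 0, with an exact (Clopper-Pearson) 95% interval that covers counting error only. Where no cell held a value, the share allowed is given as 3 counts of the number of cells, which lies below the upper end of the exact interval. Levels are not divided by transcript length, so levels of different genes are not compared with each other.

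Clustering without the receptor genes gave 17 clusters of 3995 cells, after 6 predicted doublets were removed. By marker genes, 1058 cells in 4 clusters were ventricular zone progenitor-like, 696 cells in 4 clusters were subventricular zone progenitor-like, and 2016 cells in 8 clusters were neuron-like. Among the neuron-like clusters, clusters 12 and 16 (630 cells) were GABAergic MGE neuron-like, clusters 8 and 9 (668 cells) cholinergic neuron-like, cluster 17 (240 cells) like neurons of the lateral ganglionic eminence (LGE), and cluster 14 (33 cells) glutamatergic neuron-like. Of the 10 cholinergic markers with a row, Lhx8, Gbx1, Zic1 and Zic4 stood out in cluster 8. In cluster 9 the same genes and Gbx2 did. The other listed markers, such as Isl1, did not stand out in either. The cholinergic name thus rests on 4 or 5 genes, and use of acetylcholine by these cells was not tested. Clusters 10 and 13 were neuron-like without a subtype name, and cluster 15 (225 cells) had no stage name. The 18 neuronal markers summed to levels of 114 to 219 in the 8 neuron-like clusters and 15 to 24.9 in the ventricular zone clusters. They summed to 33.5 to 85.1 in the subventricular zone clusters, and none of the 18 was at 0 in any cluster. Markers of red blood cells, which should be absent from all 17 clusters, summed to 1.52 to 2.30 in every one, and the part of free RNA in the receptor values was not tested.

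Sequence upstream of the transcription start is shown for 3 receptor genes on which the results turn. Gria2 had the most summed values of the 53 genes, Grik3 was the member with the highest ratio of subventricular to ventricular zone progenitors, and Gabra2 is described below for its uneven level over the neuron-like clusters. The RefSeq table (GRCm38.p6) held promoter sequence for 40 of the 53 genes. Each window is the 250 bases before the RefSeq start on the gene's strand, and no annotated exon overlaps it. They lie at chr3:80802836-80803085 on the minus strand (Gria2), chr4:125490446-125490695 on the plus strand (Grik3) and chr5:71095850-71096099 on the minus strand (Gabra2). Capitals mark a match, on either strand, to AGCACC followed by any 2 bases and GGACAG (the core of the RE1 element, which binds the repressor REST) in Gria2, and to the GC box GGGCGG in Grik3 and Gabra2.
Gria2: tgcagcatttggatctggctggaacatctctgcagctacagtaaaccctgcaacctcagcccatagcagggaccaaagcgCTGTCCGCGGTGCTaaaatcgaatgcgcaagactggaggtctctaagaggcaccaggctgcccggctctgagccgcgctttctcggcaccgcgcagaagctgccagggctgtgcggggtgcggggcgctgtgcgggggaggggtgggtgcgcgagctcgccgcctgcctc
Grik3: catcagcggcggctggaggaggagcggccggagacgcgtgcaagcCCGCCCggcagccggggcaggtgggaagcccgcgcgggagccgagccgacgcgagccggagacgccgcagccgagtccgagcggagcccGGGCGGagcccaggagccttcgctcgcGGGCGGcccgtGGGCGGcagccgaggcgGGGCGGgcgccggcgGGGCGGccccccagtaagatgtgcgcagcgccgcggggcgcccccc
Gabra2: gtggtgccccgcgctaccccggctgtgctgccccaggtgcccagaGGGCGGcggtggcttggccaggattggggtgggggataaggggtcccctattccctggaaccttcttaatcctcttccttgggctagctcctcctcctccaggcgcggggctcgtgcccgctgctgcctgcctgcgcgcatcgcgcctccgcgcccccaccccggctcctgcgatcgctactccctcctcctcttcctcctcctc
The motifs were chosen after the levels had been seen, and a match is a description of letters, not of binding. The RE1 core was found in the upstream windows of 14 of 27025 genes (0.0518%), and Gria2 was the only one of the 40 receptor genes among them, with the match 157 to 170 bases before the start. The GC box was found upstream of 67.5% of the receptor genes (27 of 40, the noncoding Chrna1os among them) and of 35.4% of all 27025 genes. The Grik3 window held 6 matches to it and the Gabra2 window 1, and neither of the other motifs was found in them. The homeodomain core TAATTA was found for 3 of the 40 receptor genes (Chrnb1, Gabrg1 and Htr2a; 7.50%), beside 5.65% of all genes, and in none of the 3 windows shown.

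More receptor genes were seen per cell in neuron-like cells than in progenitor-like cells. Thinned to 10000 summed values each, ventricular zone progenitor-like cells held values for 1.36 ± 1.22 of the 53 genes (SD over cells), and 26.7% of them held none. Subventricular zone progenitor-like cells held 1.63 ± 1.24 receptor genes. Neuron-like cells held 3.90 ± 2.04, and 2.23% of them held none. Without thinning the means were 1.78, 1.91 and 4.47. Cells of the ventricular zone class had a median of 13515 summed values against 11951.5 in neuron-like cells, and the raw depth behind these totals is unknown. Among neuron-like clusters the mean ran from 2.75 in cluster 12 and 2.77 in cluster 8 to 4.87 in cluster 9, 4.89 in cluster 17 and 5.05 in cluster 13. Clusters 8 and 12 also had the lowest level of Mapt, a microtubule protein gene of maturing axons, at 1.11 and 1.19 beside 3.37 to 6.72 in the other neuron-like clusters. The SD over cells was wide enough that the mean ± SD ranges of all neuron-like clusters overlapped.

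**Figure D1:**
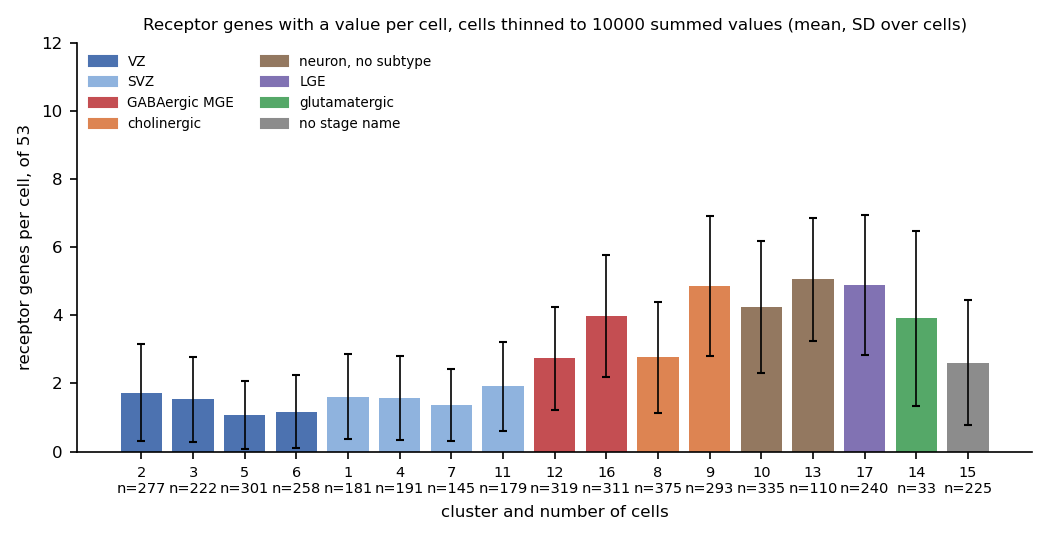
Mean number of the 53 receptor genes with a value per cell (vertical axis) in each of the 17 clusters (horizontal axis), after thinning to 10000 summed values; lines are the SD over cells and colours give the named class. Progenitor-like clusters lie between 1.07 and 1.92, neuron-like clusters between 2.75 and 5.05.

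Most receptor genes were at a higher level in neuron-like than in ventricular zone progenitor-like cells. Of the 35 genes of the set with at least 30 summed values in these cells, 24 (Grina among them) were at least 2-fold higher in neuron-like cells, against 16.9% of all 14742 genes measured in the same way. Another 4 were at least 2-fold lower (24.8% of all genes), and 7 lay between. The median log2 ratio was 1.76 over the 35 receptor genes and -0.18 over all genes. With levels as mean values per cell, not rescaled to 10000, the median over all genes moved to -0.30. Of the 24, 23 remained at least 2-fold higher (15.1% of all genes), the exception being Chrna4. Chrna4 was also under 2-fold at resolution 0.5, with 50 components, with doublets kept and among cells with 3500 to 4500 genes. It was so too without the 33 cells of cluster 14. The same held without the cells in which genes of mean near 1 hardly ever hold the value 1. Cells of both stages with 3500 to 4500 genes gave 21 higher (20.1% of all genes) and 2 lower (20.7%) of 27 receptor genes. Without clusters 13 and 17, 19 of the 24 remained at least 2-fold higher (16.2% of all genes), and Gabra2, Grm8, Grin1, Chrna4 and Chrna3 did not. Just inside the 2-fold line was Chrna4, 2.04-fold higher, and just outside it Gabrb1, 1.64-fold higher. A difference between clusters of 1 library has no replicate check, and no p-value is given.

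Between subventricular and ventricular zone progenitor-like cells fewer receptor genes could be compared, 20 in place of 35. Of the 20 receptor genes with enough values, 4 were at least 2-fold higher in subventricular zone progenitor-like cells (5.56% of all 13471 genes) and 4 at least 2-fold lower (12.4%). Grik3, Chrnb2 and Grina were among the higher ones. The 4 lower ones were Gria3, Gabra4, Gabrq and Gabra2, and the first 3 of them were also lower in neuron-like cells. Gabra4 was not counted as lower in 8 of the alternatives, among them resolution 2 and the retention of doublets. Gabrq was not with 50 components, with at least 100 summed values or among cells with 3500 to 4500 genes. Gabra2 was not with at least 100 summed values. Grina was not counted as higher at resolution 2 or at 3-fold. The median log2 ratio was 0.04 over the receptor genes and -0.16 over all genes.

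**Figure D2:**
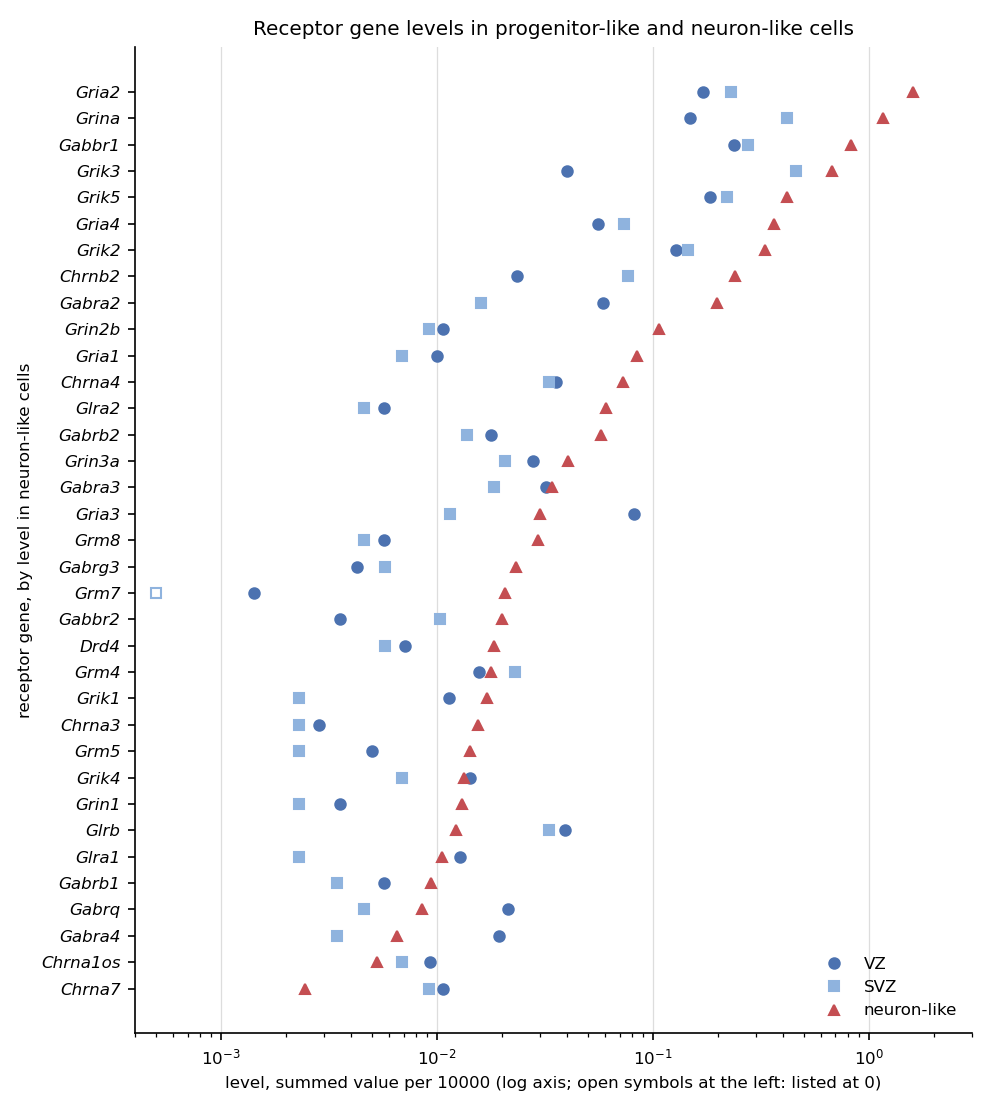
Level (summed value per 10000, log axis) of 35 of the 37 receptor genes with at least 30 summed values in ventricular zone (VZ) progenitor-like, subventricular zone (SVZ) progenitor-like and neuron-like cells, in order of the level in neuron-like cells. Most triangles (neuron-like) lie to the right of the circles (VZ); Grik3 is the gene whose square (SVZ) lies farthest from its circle in the upper part, at 0.458 against 0.0400.

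Among GABA-A receptor genes, 14 of 19 annotated genes had a row and 9 reached 30 summed values. Of the 9, 5 were at least 2-fold higher in neuron-like than in ventricular zone progenitor-like cells (16.9% of all genes), 2 at least 2-fold lower (24.8%) and 2 between.

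Gabra2, an alpha subunit that contributes to the GABA binding site and is abundant in the fetal forebrain, was concentrated in 2 clusters. Its level was 1.38 ± 2.38 in cluster 13 and 0.618 ± 1.29 in the LGE-like cluster 17. In the other neuron-like clusters it ran from 0.0268 in cluster 10 to 0.169 in cluster 14. The share of cells was 41.8% (32.5 to 51.6%) in cluster 13 and 30.8% (25.1 to 37.1%) in cluster 17, and 4.44% (2.97 to 6.36%) in GABAergic MGE neuron-like cells. Gabra2 was also seen in progenitors, at 0.0585 in ventricular zone and 0.0160 in subventricular zone progenitor-like cells, 3.65-fold lower in the latter. Single cells with high values weigh on this gene, since 618 summed values came from 310 cells and 1 cell held 12.

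Gabra3 and Gabra4 had fewer values. Gabra3, another alpha subunit of the developing brain, was at 0.112 in LGE neuron-like cells and 0.0191 in MGE neuron-like cells, and did not differ by 2-fold between neuron-like and ventricular zone progenitor-like cells. Gabra4, which in the adult forms receptors outside synapses, was at 0.0193 in ventricular zone progenitor-like and 0.00650 in neuron-like cells, 2.97-fold lower in the latter. Gabrq, the theta subunit, followed the same order at 0.0214 and 0.00853. Both had their highest cluster among the ventricular zone clusters led by histone genes, Gabrq in cluster 2 at 0.0405 and Gabra4 in cluster 3 at 0.0332, which are also the clusters with the most genes per cell (medians 4659 and 4631). The part of depth in these differences was not tested, and both genes fell under 30 summed values when only cells with 3500 to 4500 genes were kept.

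Gabrb2, the most common beta subunit of the adult brain, was 3.21-fold higher in neuron-like cells, at 0.0573. Gabrb1 was at 0.00934 there and at 0.00571 in ventricular zone progenitor-like cells. Gabrg3 was at 0.0232 in neuron-like cells and was highest in cluster 10 at 0.0487. It was listed at 0 in the LGE-like cluster 17, where 0 of 240 cells allows a share of up to 1.25%. Gabra5, Gabrg1, the epsilon subunit gene Gabre and the rho subunit gene Gabrr2 had 10 to 24 summed values each and are not compared. Gabra6, Gabrd, Gabrp, Gabrr1 and Gabrr3 had no row in the matrix.

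GABA-A genes lie in groups of neighbours, and neighbours did not always share a direction. On chromosome 5 (GRCm38), Gabra2 (70957597 to 71095849, minus strand) was 3.39-fold higher in neuron-like than in ventricular zone progenitor-like cells, while Gabra4 (71569749 to 71658308, minus strand) was 2.97-fold lower. The Gabra2 difference came from clusters 13 and 17: without them its log2 ratio was 0.01, and MGE neuron-like cells were at 0.0642 against 0.0585 in ventricular zone progenitor-like cells. On the X chromosome, Gabra3 was under 2-fold apart and Gabrq lower. Gabra4 overlaps Gabrb1 on the opposite strand. No source used here says whether strand entered the counting, so values of these overlapping genes are uncertain.

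Both GABA-B genes were at higher levels in neuron-like cells, but on different scales of detection. Gabbr1, whose protein binds GABA, was at 0.237, 0.276 and 0.830 ± 0.937 in ventricular zone progenitor-like, subventricular zone progenitor-like and neuron-like cells. Its share of cells was 26.6% (23.9 to 29.3%) in the first and 58.3% (56.1 to 60.4%) in the last, and every neuron-like cluster lay between 0.642 (cluster 8) and 1.05 (cluster 17). Gabbr2, whose protein carries the dimer to the surface and couples it to the G protein, was at 0.0199 in neuron-like cells, in 2.23% (1.63 to 2.98%) of cells. It was 5.58-fold above ventricular zone progenitor-like cells, and Gabbr1 3.50-fold.

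Of the glycine receptor genes, 4 of 5 had a row and 3 reached 30 summed values. Glra2, the alpha subunit of the fetal receptor, was at 0.00571 in ventricular zone progenitor-like and 0.0609 ± 0.340 in neuron-like cells, 10.7-fold higher. Cluster 10 had the highest level, 0.180, with a share of 11% (7.90 to 14.9%), and the other neuron-like clusters ran from 0.0128 to 0.0668. Glrb, the beta subunit that ties the receptor to the gephyrin scaffold, went the other way, at 0.0393 in ventricular zone progenitor-like and 0.0122 in neuron-like cells, 3.22-fold lower. Glra1, the adult alpha subunit, was at 0.0128 and 0.0106, under 2-fold apart. Glra3 had 19 summed values in 19 cells and Glra4 had no row.

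All 4 AMPA receptor genes were measured, and they did not share a pattern. Gria2 encodes the subunit that makes AMPA receptors nearly impermeable to calcium. It was at 0.171 ± 0.463 in ventricular zone progenitor-like, 0.229 ± 0.583 in subventricular zone progenitor-like and 1.60 ± 2.08 in neuron-like cells, 9.34-fold higher in neuron-like than in ventricular zone progenitor-like cells. Its level by neuron-like cluster was 0.315 in cluster 12, 0.651 in cluster 8, 1.12 in cluster 16, 1.16 in cluster 14, 1.44 in cluster 10, 2.29 in cluster 17, 3.07 in cluster 9 and 5.06 in cluster 13. The 2 lowest clusters are those lowest in Mapt. The share of cells was 99.1% (95 to 100%) in cluster 13, 91.1% (87.3 to 94.1%) in cluster 9 and 22.9% (18.4 to 27.9%) in cluster 12, the last overlapping the interval of the ventricular zone cluster 2, 24.2% (19.3 to 29.7%).

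Gria4 encodes a fast-gating AMPA subunit known from interneurons. It was at 0.588 ± 0.871 in GABAergic MGE neuron-like and 0.200 ± 0.476 in cholinergic neuron-like cells, with cluster 16 highest at 0.849 and cluster 8 lowest of the neuron-like clusters at 0.158. Shares were 56.9% (51.2 to 62.5%) in cluster 16, 31.3% (26.3 to 36.8%) in cluster 12, 22.9% (18.2 to 28.1%) in cluster 9 and 13.3% (10.1 to 17.2%) in cluster 8, so cluster 16 stood apart from both cholinergic clusters, while the intervals of clusters 12 and 9 overlapped. Gria1 was at 0.302 in LGE neuron-like cells, in 28.3% (22.7 to 34.5%) of cells, and at 0.289 in the small cluster 14, while the other neuron-like clusters lay between 0.0154 and 0.0867. Gria3 was the AMPA gene that was lower in neuron-like cells, at 0.0814 in ventricular zone progenitor-like and 0.0301 in neuron-like cells. Its only neuron-like cluster at the level of the progenitors was cluster 9, at 0.123, and cluster 3 of the ventricular zone was at 0.123.

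The make-up of the AMPA values thus differed between sets of cells. Of the summed AMPA values, Gria2 held 52.5% in GABAergic MGE neuron-like cells (1045 summed values), 77.6% in LGE neuron-like, 85.2% in cholinergic neuron-like cells (1631) and 91.1% in cluster 13. Gria4 held 43.4% in GABAergic MGE neuron-like and 9.87% in cholinergic neuron-like cells. Both clusters of each class lay on the same side, with Gria2 at 47.3% and 54.3% in the GABAergic MGE clusters and 78.1% and 87.3% in the cholinergic ones. In ventricular zone progenitor-like cells Gria3 held 25.6% and Gria2 53.8%. The values are not raw counts, so no counting interval is given for these percentages.

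**Figure D3:**
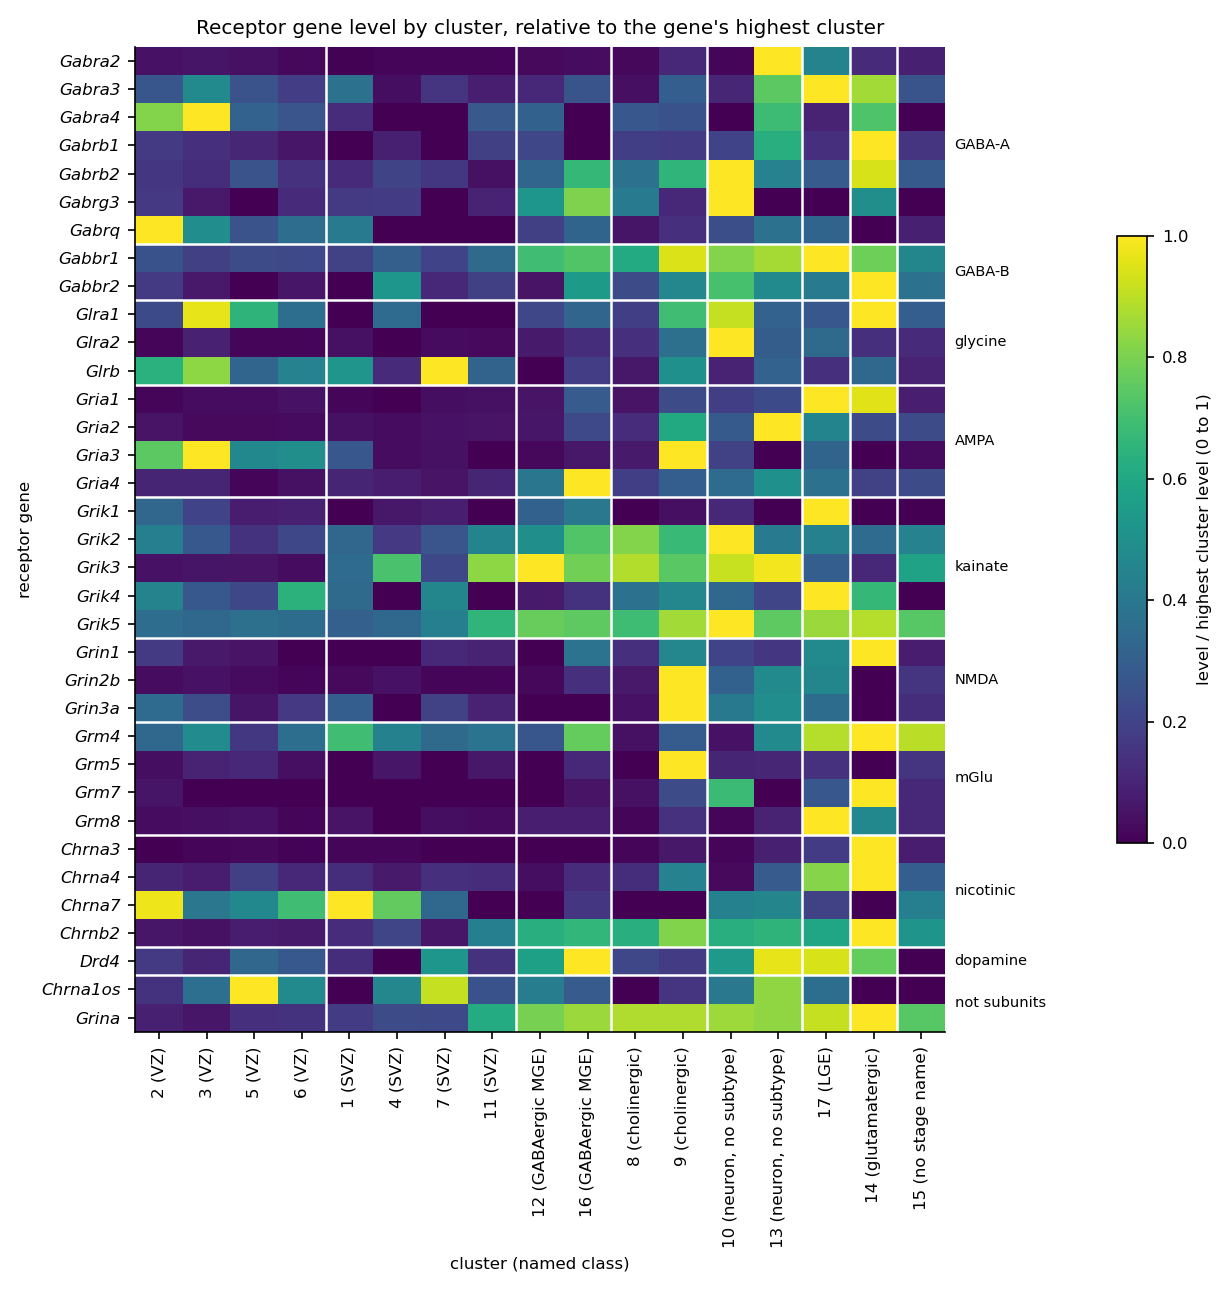
Level of each of 35 of the 37 receptor genes with at least 30 summed values in each cluster, divided by the level in the gene's highest cluster (colour, 0 to 1); rows are grouped by receptor family and columns by named class. Of the 37 genes, 31 have their highest cluster among the neuron-like clusters (43.8% of all 15284 genes with as many values), 10 of them in cluster 14 (14.1% of all genes), which holds only 33 cells.

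Grik3, a subunit of kainate receptors, had the highest ratio of subventricular to ventricular zone progenitor-like cells among the 20 genes with enough values, 11.4-fold. It was at 0.0400 ± 0.179 in ventricular zone progenitor-like, 0.458 ± 0.723 in subventricular zone progenitor-like and 0.672 ± 0.879 in neuron-like cells. The share of cells went from 5.01% (3.77 to 6.5%) to 37.1% (33.5 to 40.8%) and 49.5% (47.2 to 51.7%), with no overlap of the intervals. Subventricular zone clusters were uneven, with 50.8% of cells in cluster 4, which is led by genes of mitosis such as Cdc20, 48.0% in cluster 11, 27.6% in cluster 1 and 17.2% in cluster 7. Neuronal markers summed to 70.4 and 85.1 in clusters 4 and 11, and to 33.5 and 41.2 in clusters 1 and 7. The part of maturity in the Grik3 shares was not tested. Among neurons, the MGE classes were under 2-fold apart at 0.759 (GABAergic) and 0.697 (cholinergic), and the LGE-like cluster was lower at 0.253, 2.88-fold below MGE neuron-like cells. Cluster 14 was lowest of the neuron-like clusters at 0.0963, in 12.1% (3.40 to 28.2%) of 33 cells.

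The other kainate genes had patterns of their own. Grik5, which needs a partner such as Grik2 or Grik3 to form a channel, was at 0.183, 0.220 and 0.419 over the 3 stages, and between 0.354 and 0.514 in all neuron-like clusters. Grik2, which can form channels alone, was at 0.128, 0.145 and 0.329, with cluster 10 highest at 0.480. Grik1 was at 0.0657 in the LGE-like cluster and 0.0121 in MGE neuron-like cells, 5.44-fold higher in the first, and was listed at 0 in clusters 8, 13 and 14. Grik4, the other high-affinity subunit, was at 0.0143 and 0.0134 in ventricular zone progenitor-like and neuron-like cells, under 2-fold apart. Of the summed kainate values Grik3 held 49.5% in MGE neuron-like and 25.2% in LGE neuron-like cells, where Grik5 held 43.6%.

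NMDA receptor genes were sparse. Grin1, the obligatory subunit that binds glycine, had 40 summed values in all and was seen in 1.34% (0.884 to 1.94%) of neuron-like cells. Grin2b, the glutamate-binding subunit of the embryonic brain, was at 0.0107 in ventricular zone progenitor-like and 0.107 ± 0.399 in neuron-like cells, 9.98-fold higher. It was highest in cluster 9 at 0.337, in 22.2% (17.6 to 27.4%) of cells, while the other cholinergic cluster, 8, was at 0.0225 and the GABAergic MGE clusters 12 and 16 at 0.00769 and 0.0473. Cluster 8 thus lay between the GABAergic MGE clusters, and the cholinergic class was higher through cluster 9. Grin3a, a subunit that lowers calcium entry, was listed at 0 in both GABAergic MGE clusters, where 0 of 630 cells allows a share of up to 0.476%, and was at 0.0660 in cholinergic neuron-like cells, in 5.24% (3.68 to 7.21%) of cells. Here too cluster 9 at 0.139 stood above cluster 8 at 0.00676, and Grin3a was also seen in 3.59% (2.55 to 4.90%) of ventricular zone progenitor-like cells. Grin2d had 23 summed values, and Grin2a, Grin2c and Grin3b had no row.

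Of the metabotropic glutamate receptor genes, 6 of 8 had a row and 4 reached 30 summed values. Grm8, Grm7 and Grm4 encode receptors that lower cyclic AMP and sit mostly on nerve endings. Grm8 was at 0.154 ± 0.582 in LGE neuron-like and 0.0121 in MGE neuron-like cells, 12.8-fold higher in the first, with shares of 10.0% (6.51 to 14.5%) and 1.16% (0.648 to 1.90%). Grm4 was at 0.0427 and 0.0159 in the same cells and under 2-fold apart in neuron-like (0.0179) and ventricular zone progenitor-like cells (0.0157). Grm7 was at 0.0207 in neuron-like cells, highest in cluster 14 (9.09% of 33 cells) and cluster 10 (5.67%). Grm5, which acts through calcium release, was at 0.0696 in cluster 9 and at most 0.00986 in the other neuron-like clusters. Grm2 had 10 summed values, and Grm3 and Grm6 had no row.

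Among nicotinic receptor genes, 6 of 16 had a row. Chrnb2, the beta subunit of the main nicotinic receptor of the brain, was at 0.0236, 0.0766 and 0.240 ± 0.463 over the 3 stages, 10.2-fold higher in neuron-like than in ventricular zone progenitor-like cells. It was even across neurons, between 0.214 and 0.361 by cluster. Chrna4, its usual alpha partner, was uneven. Its share was 22.9% (17.8 to 28.8%) in the LGE-like cluster, 12.3% (8.76 to 16.6%) in cluster 9, 27.3% (13.3 to 45.5%) in cluster 14, 1.25% (0.343 to 3.18%) in cluster 12 and 0.896% (0.185 to 2.59%) in cluster 10, and 3.88% (2.80 to 5.22%) in ventricular zone progenitor-like cells. Cluster 10 thus lay below the progenitor share and clusters 9, 14 and 17 above it, while the interval of cluster 12 overlapped that of the progenitors. Chrna3, best known from autonomic ganglia, was at 0.265 in the glutamatergic neuron-like cluster, in 24.2% (11.1 to 42.3%) of 33 cells, and at most 0.0460 in the other neuron-like clusters, while 0 of 630 GABAergic MGE neuron-like cells had a value (a share of up to 0.476%). Chrna7, whose subunit forms receptors of 1 subunit type, was seen in 1.42% (0.796 to 2.33%) of ventricular zone progenitor-like and 0.298% (0.109 to 0.647%) of neuron-like cells, with too few values in those sets for a ratio. Chrna5 and the muscle subunit gene Chrnb1 had 25 and 10 summed values.

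The receptors for muscarinic acetylcholine signals, serotonin and dopamine were at the edge of detection. Drd4, a dopamine receptor that lowers cyclic AMP, was the only one with at least 30 summed values. It was seen in 2.23% (1.63 to 2.98%) of neuron-like and 0.945% (0.454 to 1.73%) of ventricular zone progenitor-like cells, never at a value above 1. Drd2, the receptor of indirect-pathway striatal neurons in the adult, had 16 summed values in 13 cells, with its highest cluster the LGE-like one. Chrm2 and Chrm3 had 19 and 12 summed values, Htr7 and Htr2a 19 and 12. Drd1, Drd3 and Drd5, Chrm1, Chrm4 and Chrm5, and the other 12 serotonin receptor genes had no row in the matrix.

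The 2 genes of the set that encode no subunit behaved differently. Grina was at 0.149, 0.415 and 1.16 ± 1.12 over the 3 stages and even across neurons, from 1.07 to 1.35 by cluster. It therefore adds to counts of the 53 genes without being a receptor. Chrna1os had 32 summed values in 32 cells, in 1.23% (0.656 to 2.09%) of ventricular zone progenitor-like and 0.645% (0.344 to 1.10%) of neuron-like cells.

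The series sets cholinergic against GABAergic lineages, and the cluster classes were compared for the receptor genes. Of 20 receptor genes with enough values, 7 were at least 2-fold higher in cholinergic neuron-like than in GABAergic MGE neuron-like cells (3.68% of all 11839 genes) and 2 at least 2-fold lower (2.53%). The higher genes were Gria3, Grin2b, Chrna4, Gria2, Glra2, Gabra2 and Grin3a, and the lower ones Gria4 and Gabrg3. Gria4 was 2.93-fold lower, at log2 -1.55, and between -1.91 and -1.24 under the alternatives. Gria2 was 2.43-fold higher, at log2 1.28, and between -0.13 and 1.45. Grik3, Grik5, Gabrb2, Gabbr1, Grina and Chrnb2 lay within 0.14 of a log2 ratio of 0 in both directions. The median log2 ratio was 0.22 over the receptor genes and -0.01 over all genes.

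The higher genes had their higher level in cluster 9, one of the 2 cholinergic clusters. Without it, none of 16 receptor genes was at least 2-fold higher (1.93% of all genes) and 2 were lower (3.8%), Gria4 and Gria1. Gria3, Glra2 and Grin3a then had too few values to be compared. Gria2 was at 0.651 in cluster 8 and 3.07 in cluster 9, beside 0.315 and 1.12 in the GABAergic MGE clusters 12 and 16. Chrna4 was at 0.0383 in cluster 8, 0.128 in cluster 9 and 0.0368 in cluster 16, and 44 of the 48 summed values of Gria3 in the cholinergic class came from cluster 9. Gabra2 was at 0.0293 in cluster 8 and 0.156 in cluster 9, beside 0.0359 and 0.0473 in clusters 12 and 16.

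Several of these differences moved with other choices of cells and clusters too. Without clusters 8 and 12, the lowest in Mapt, 7 genes were higher (5% of all genes) and 1 lower (3.71%) of 18. With the coarser clusters of resolution 0.5, only 3 of 21 were higher (Gria3, Glra2 and Grin3a, 2.55% of all genes) and 4 lower (2.69%). Grin2b turned to log2 -0.66. With cluster 10, which carries markers of both classes, counted with the GABAergic MGE class, Glra2 turned to log2 -0.77 and Gria2 was no longer 2-fold higher. Gria4 was at least 2-fold lower in cholinergic neuron-like cells in each of these settings. Neuronal markers summed to 124 and 165 in the GABAergic MGE clusters 12 and 16, and to 114 and 166 in the cholinergic clusters 8 and 9. Cluster 8 was high in markers of both classes as well. Its GABAergic MGE markers summed to 20.55, beside 25.31 and 33.79 in clusters 12 and 16, 23.87 in cluster 10 and 8.469 in cluster 9. Its cholinergic markers summed to 20.26, beside 19.88 in cluster 9 and 13.73 in cluster 10.

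**Figure D4:**
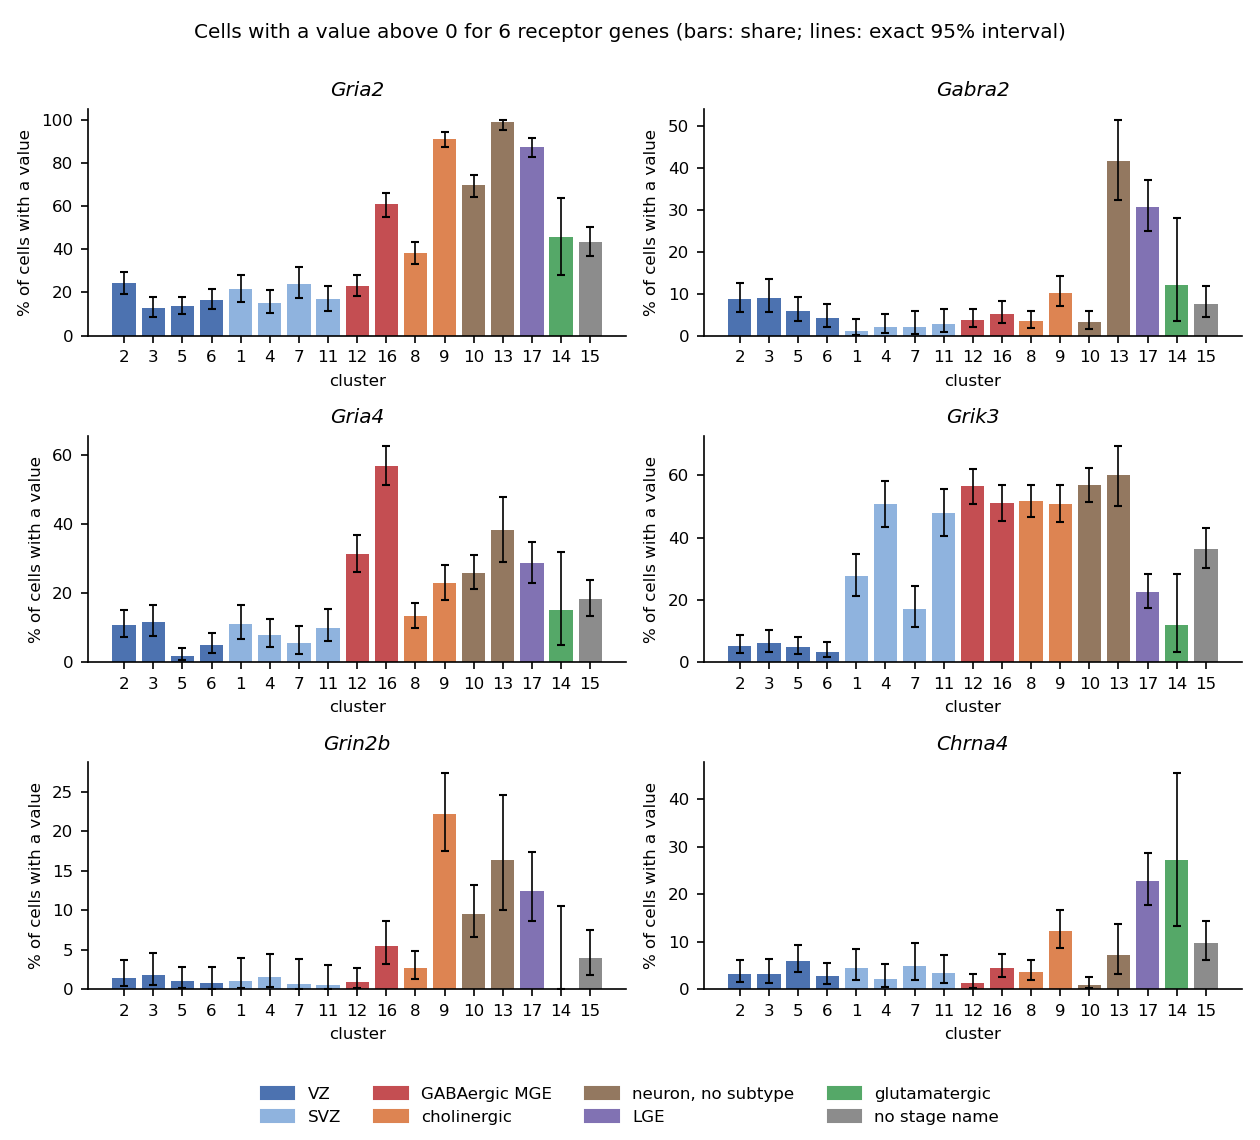
Share of cells with a value above 0 (vertical axis, %; lines are exact 95% intervals) in each cluster (horizontal axis) for Gria2, Gabra2, Gria4, Grik3, Grin2b and Chrna4; colours give the named class. Gria4 is highest in the GABAergic MGE cluster 16 (56.9%) and Gabra2 in clusters 13 and 17 (41.8% and 30.8%). Grik3 is at 50.8% in cluster 4 of the subventricular zone, where neuronal markers summed to 70.4.

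The LGE makes the striatal projection neurons, and the LGE-like cluster was compared with both MGE classes together. Of 26 genes with enough values, 8 were at least 2-fold higher in the LGE-like cluster (6.84% of all 12314 genes) and 2 at least 2-fold lower (5.86%). The higher genes were Grm8, Gabra2, Gria1, Gabra3, Grik1, Chrna4, Grm4 and Glra2, and the lower ones Grik3 and Gabrg3. Gabra2 was 9.62-fold higher (log2 3.27) and Gria1 6.70-fold (log2 2.74). Glra2 stood on the 2-fold line and turned to log2 -0.74 with finer clusters, while Drd4 was just under it at 1.94-fold. The other 7 higher genes and Grik3 kept their direction in every alternative in which they had enough values. For Gabrg3, listed at 0 in the LGE-like cluster, no finite ratio can be given. The median log2 ratio was 0.46 over the receptor genes and 0.03 over all genes. The LGE-like cluster also had the highest summed level of neuronal markers (219) and more genes per cell (median 4055.5 against 3754.5). Among cells with 3500 to 4500 genes, 5 of 20 genes were higher (5.5% of all genes) and 1 lower (7.41%). The part of maturity in the differences was not tested.

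**Figure D5:**
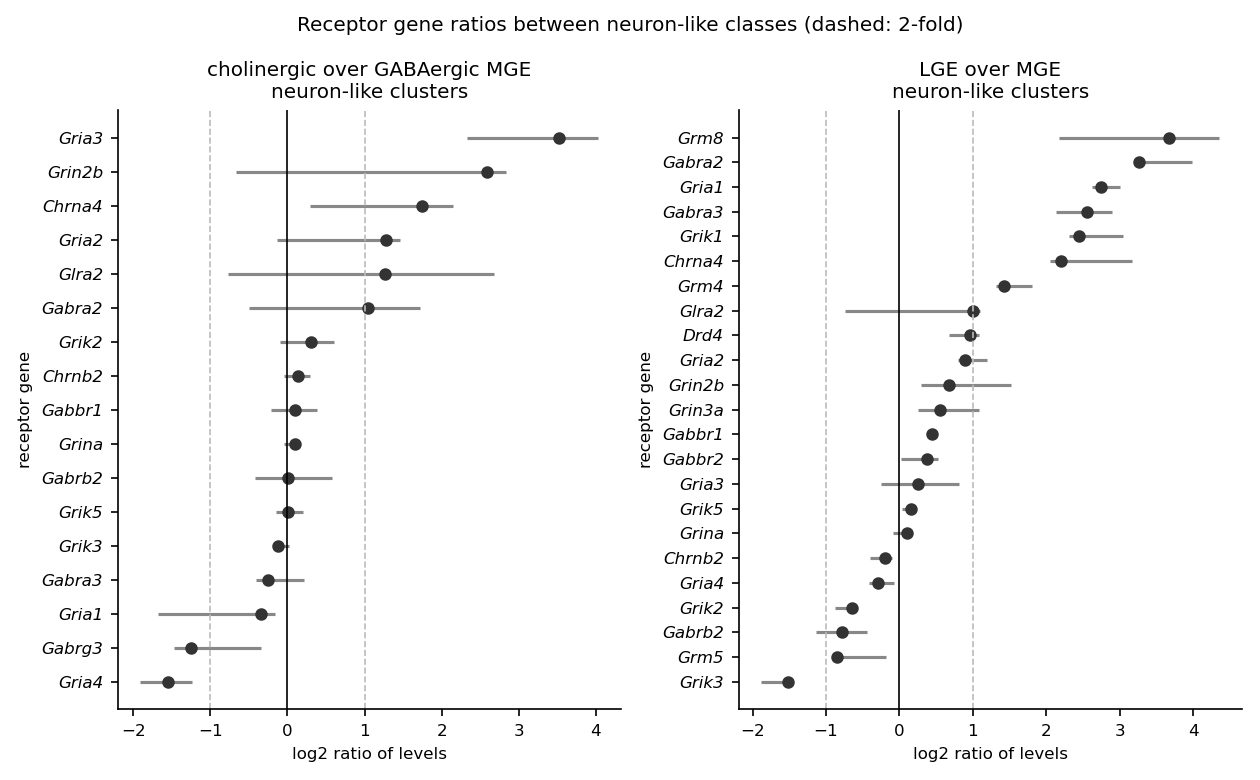
Log2 ratio of levels (horizontal axis) for the receptor genes shown (vertical axis), each with at least 30 summed values, in cholinergic over GABAergic MGE neuron-like cells (left) and LGE over MGE neuron-like cells (right); points are the reported ratios, lines span the alternatives, dashed lines mark 2-fold. Gria4 lies at -1.55 on the left and Gabra2 at 3.27 on the right; Grin3a (left) and Gabrg3 (right) have no point because 1 side was listed at 0.

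Cell by cell, few cells held the full set of subunits that a receptor needs. Of thinned neuron-like cells, 58.7% (56.5 to 60.8%) held some GABA-A subunit gene, but 1.84% (1.30 to 2.52%) held an alpha, a beta and a gamma gene together (2.83% without thinning). The share with all 3 kinds was 7.27% (3.19 to 13.8%) in cluster 13 and 5.42% (2.92 to 9.08%) in the LGE-like cluster, the clusters high in Gabra2, and 0.159% (0.00402 to 0.881%) in GABAergic MGE neuron-like cells. Both GABA-B genes were seen together in 0.694% (0.380 to 1.16%) of neuron-like cells, although Gabbr1 alone was seen in 51.8%. Grin1 with a Grin2 gene was seen in 3 of 2016 neuron-like cells.

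AMPA and kainate partners were met more often. Such shares also depend on how often each single gene is seen, and no expected share is given beside them. Gria2 with another AMPA gene was seen in 21.1% (19.4 to 23%) of neuron-like cells (25.3% without thinning) and in 40.0% (33.8 to 46.5%) of LGE neuron-like cells. Another AMPA gene without Gria2 was seen in 22.7% (19.5 to 26.2%) of GABAergic MGE neuron-like and 6.29% (4.57 to 8.4%) of cholinergic neuron-like cells. A channel-forming kainate gene (Grik1, Grik2 or Grik3) with Grik4 or Grik5 was seen in 19.6% (17.9 to 21.4%) of neuron-like and 4.06% (2.96 to 5.44%) of ventricular zone progenitor-like cells. Chrna4 and Chrnb2 were seen together in 4.58% (2.31 to 8.05%) of LGE neuron-like and 0.794% (0.258 to 1.84%) of GABAergic MGE neuron-like cells. At these values per cell a gene that is not seen in a cell cannot be called absent from it.

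Genes that make the transmitters or serve the receptors were taken from 7 lists of 91 genes, 76 of which had a row. In the list for GABA synthesis, uptake and chloride transport, 6 of 7 genes with enough values were at least 2-fold higher in neuron-like than in ventricular zone progenitor-like cells (16.9% of all genes), and 1 was lower (24.8%). Gad2, which makes GABA, went from 0.141 to 7.29. The chloride importer Slc12a2 went from 0.348 to 0.116 and the chloride exporter Slc12a5 from 0.0221 to 0.0841, in opposite directions. Slc12a5 was also 1.38 (log2) higher in cholinergic than in GABAergic MGE neuron-like cells and 1.51 higher in LGE than in MGE neuron-like cells. In subventricular against ventricular zone progenitor-like cells, 5 of the 7 genes of this list were at least 2-fold higher, with Gad2 at 2.04 (5.56% of all genes).

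Of the list for anchoring and assembly of GABA-A and glycine receptors, 7 of 11 genes were at least 2-fold higher in neuron-like cells (16.9% of all genes) and none lower, among them Shisa7 (0.00999 to 0.149), while the scaffold gene Gphn went from 0.308 to 0.340. Both measured GABA-B auxiliary genes were higher, Kctd8 by log2 3.26 and Kctd12 by 1.63. Of the glutamate receptor auxiliary and scaffold genes, 15 of 29 were higher (16.9% of all genes) and 2 lower (24.8%). Cnih2, which escorts AMPA receptors, went from 0.285 to 4.23, whereas its relative Cnih3 went from 0.0214 to 0.000812. The AMPA auxiliary gene Cacng3 followed Gria4 in the class comparison, at log2 -1.92 in cholinergic over GABAergic MGE neuron-like cells, and was at 0.00329 in LGE against 0.0826 in MGE neuron-like cells. Of the glutamate transport genes, 2 of 4 were higher (16.9%) and 1 lower (24.8%), the latter being Slc1a3, a transporter of radial glia (0.280 to 0.00284). Slc1a3 was also among the ventricular zone markers that named the clusters, so its direction was built into the class names and is no separate result.

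In the list for cholinergic synthesis, transport and nicotinic assembly, 5 of 8 genes were higher in neuron-like cells (16.9% of all genes) and 1 lower (24.8%). Lypd6 and Lypd6b, which encode membrane-anchored modulators of nicotinic receptors, were at log2 3.56 and 3.11 in cholinergic over GABAergic MGE neuron-like cells and at -4.36 and -3.76 in LGE over MGE neuron-like cells. Ache, the enzyme that breaks down acetylcholine, was at log2 2.75 in the first comparison. Of the genes for monoamine synthesis, transport and dopamine effectors, 3 of 6 were higher in neuron-like than in ventricular zone progenitor-like cells (16.9% of all genes), among them Th (0.0128 to 0.362), and 4 of 5 were higher in LGE than in MGE neuron-like cells (6.84% of all genes), among them the vesicle transporter Slc18a2 (0.0318 to 0.756).

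For the 5 receptor genes leading in neuron-like cells, the genes with the most similar levels over the 17 clusters were ranked by Spearman correlation among 10096 genes with at least 300 summed values. The clusters share 1 library and 1 axis of maturation, so the values are a description. Gria2 was closest to Tram1l1 (0.958), Clasp2 (0.953) and Micu3 (0.951). Grik3 was closest to Ssbp2 (0.958), Bag6 (0.934) and Abat (0.929), the last of which encodes the enzyme that breaks down GABA. Gabbr1 was closest to Limk2 (0.978), Grina to Mras (0.975) and Grik5 to Hcfc1r1 (0.953).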

How the data were processed

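The deposited matrix holds 18088 genes and 4001 cells of 1 polyA RNA library, which per the submitters' processing notes was made with bcl2fastq, Cell Ranger 3.0.2 and GRCm38. Its values were treated as a score: as deposited by the authors they are whole numbers labelled as UMI values, but near-constant cell totals look like a scaling to a common depth, and no source used here names that step. In 215 cells (5.37%), genes of mean near 1 hardly ever hold the value 1. Precision is therefore set by an unknown raw depth. Of the gene identifiers, 18071 were found in GENCODE M21.

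Cells were clustered with scanpy 1.11.5 (2000 variable genes without the receptor genes, 30 components, 15 neighbours, Leiden resolution 1, seed 0). Scrublet marked 6 doublets (0.150%), which were removed. Classes were named from marker lists: a cluster took the list with the highest mean z score if at least 3 markers stood out and no other list led its 10 leading genes. This naming rule was set after cluster marker values had been seen. Levels are summed values per 10000. Ratios were taken where a gene had at least 30 summed values in the compared cells, and counted at 2-fold. With 1 library no model or test was fitted. Cells were thinned to 10000 values for numbers of genes per cell and co-detection. All rows of the rule are accounted for, and those past the fold or among the 15 highest in neurons are described in full. The ratio step was tested on simulated Poisson counts for neurons against ventricular zone progenitors. A small part of the 14767 genes measured was changed, by more than the 2-fold cut. The step recovered 99.5% of the changed genes and called 0.604% of the unchanged ones. The simulation had no spread between cells, so it does not test calls near the 2-fold line in these data. The members and lists were chosen with earlier results of these data known. The sample barcode library was not analysed here. A few genes of the set enter the counts but are not reported here by name or drawn.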

Additional observations from a re-analysis of the deposited data

How the results depend on the processing

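Counts of receptor genes past the fold moved most with the minimum of summed values. Asking for 100 values in place of 30 left 1 of 19 genes lower in neuron-like against ventricular zone progenitor-like cells (22.8% of all genes). In subventricular against ventricular zone progenitor-like cells 1 of 10 was lower (9.74%). In cholinergic against GABAergic MGE neuron-like cells 3 of 12 were higher (2.42%) and 1 lower (1.48%). In LGE against MGE neuron-like cells 3 of 14 were higher (4.75%) and 1 lower (3.81%). With no minimum, the shares over all genes rose too. In the same order, 7 of 53 genes were lower (27.4% of all genes), then 8 of 53 higher (8.84%) and 18 lower (17%). In the last 2 comparisons 17 of 50 were higher (10.1%) and 14 lower (9.56%), and 20 of 53 higher (12.6%) and 9 lower (15.1%). At 3-fold, 1 of 35 genes was lower in neuron-like against ventricular zone progenitor-like cells (15.6% of all genes). Then 2 of 20 were higher in subventricular against ventricular zone progenitor-like cells (2.39%). Of 20 genes, 4 were higher (1.8%) and 0 lower (0.988%) in cholinergic against GABAergic MGE neuron-like cells. Of 26 genes, 1 was lower in LGE against MGE neuron-like cells (3.08%). At 1.5-fold, 5 of these 26 were lower, and the share over all genes rose too, from 5.86% at 2-fold. Resolution 0.5 gave 3 higher (2.55% of all genes) and 4 lower (2.69%) in cholinergic against GABAergic MGE neuron-like cells and turned Grin2b to a log2 ratio of -0.66. Leaving out cells in which genes of mean near 1 hardly ever hold the value 1 gave 1 lower there (2.38% of all genes).

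Other alternatives were chosen after seeing the data. Cells with 3500 to 4500 genes gave 2 lower in neuron-like (20.7% of all genes) and 2 lower in subventricular (10%) against ventricular zone progenitor-like cells. They gave 1 lower in cholinergic against GABAergic MGE neuron-like cells (2.36%). In LGE against MGE neuron-like cells 5 were higher (5.5%) and 1 lower (7.41%). Leaving out clusters 8 and 12 gave 1 lower in the cholinergic comparison (3.71% of all genes). Leaving out cluster 9 gave 0 higher there (1.93% of all genes) and turned Gabra2 to -0.50, Grin2b to -0.27 and Gria2 to -0.13. Counting cluster 10 as GABAergic MGE turned Glra2 to -0.77 there. For LGE against MGE neuron-like cells Glra2 turned to -0.0245 at resolution 0.5, -0.74 at resolution 2, -0.0251 with a larger set of variable genes and -0.0278 with 50 components. The cause of these moves was not tested, beyond the fewer genes or cells that an alternative holds.

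Without thinning, 2.83% of neuron-like cells held alpha, beta and gamma GABA-A genes and 25.3% Gria2 with another AMPA gene. The other 89 counts stayed within 1.5 times the reported count. Of the genes' log2 ratios under an alternative, 46 were equal to 2 decimals and 968 moved. Another 9, of genes past 2-fold in the reported comparison, turned direction, and these are the 9 given above. The 968 include ratios of genes under 2-fold that changed sign, such as Gabra3 in neuron-like against ventricular zone progenitor-like cells. The number of receptor genes highest in a neuron-like cluster was 31 (43.8% of all genes) and lay between 28 and 33. No paired analysis was possible because there is 1 library. Raw depth is unknown, so genes with few values are given by counts alone.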
